A study of Arabidopsis thaliana with 6 samples.

Results

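The genes described here are the UDP-glycosyltransferases (*UGT* genes) of *Arabidopsis*, taken as every gene whose symbol begins with UGT and a family number and which has an array probe set of its own. This gave 47 genes in 11 families, among 13356 genes whose probe sets pair with 1 gene. Wild-type seedlings of the Col-0 ecotype, 14 days old and grown in liquid Murashige and Skoog medium, were exposed for 30 min to purified chitin tetramer (4mer, 100 µg/mL) or, as mock, to the same volume of water. RNA from whole seedlings, many of them pooled per flask, was measured on Affymetrix ATH1 arrays, and each group consists of 3 biological replicates. In RNA of whole seedlings, fewer cells of a type and less RNA per cell cannot be told apart.

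UGT enzymes move a sugar, most often glucose, from a UDP-sugar onto small molecules such as lignin precursors, flavonoids, plant hormones and foreign compounds. The sugar makes the acceptor more soluble, alters its activity and often directs it to the vacuole. The family number in a symbol groups enzymes by sequence similarity, and the members of 1 family can still use different acceptors. In defense, glucosylation is known to set the level of free salicylic acid, while in the phenylpropanoid pathway it yields storage forms of monolignols and sinapate.

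No UGT gene changed past the threshold after 30 min with the 4mer, and the shares of members that were called at an unadjusted p or whose groups did not overlap lay near those of all probe sets. Levels are given as multiples of the median signal of the array, the log2 ratio (4mer over mock) is the difference between the mean log2 levels of the groups as fitted by limma, and the threshold was a Benjamini-Hochberg adjusted p under 0.05 over all 22746 probe sets. By limma, 0 of 47 members passed, against 23 probe sets or 0.101% of all. By the SAM statistic of the methods 0 members passed as well, against 4 probe sets or 0.0176% of all. At an unadjusted p under 0.05, 2 members were higher with the 4mer, where 4.54% of all probe sets were, and 4 were lower, where 6.86% were. All 4mer arrays lay above all mock arrays in 4 members (7.86% of all probe sets) and below them in 7 members (12.5% of all probe sets). The median log2 ratio of the members was -0.06, with 21 members above 0 and 26 below, and that of all probe sets was -0.01. Without mock replicate 1, 0 of 47 members passed, where 1.49% of all probe sets did, and the groups did not overlap in 7 higher and 11 lower members, where 16.5% and 19.1% of all probe sets were apart in these directions. On fold alone, 2 members were at least 1.5-fold higher, where 6.23% of all probe sets were, and 6 (12.8%) were at least 1.5-fold lower, where 5.68% were, all of them dim. The plot of all members shows that most intervals include 0.

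**Figure D1:**
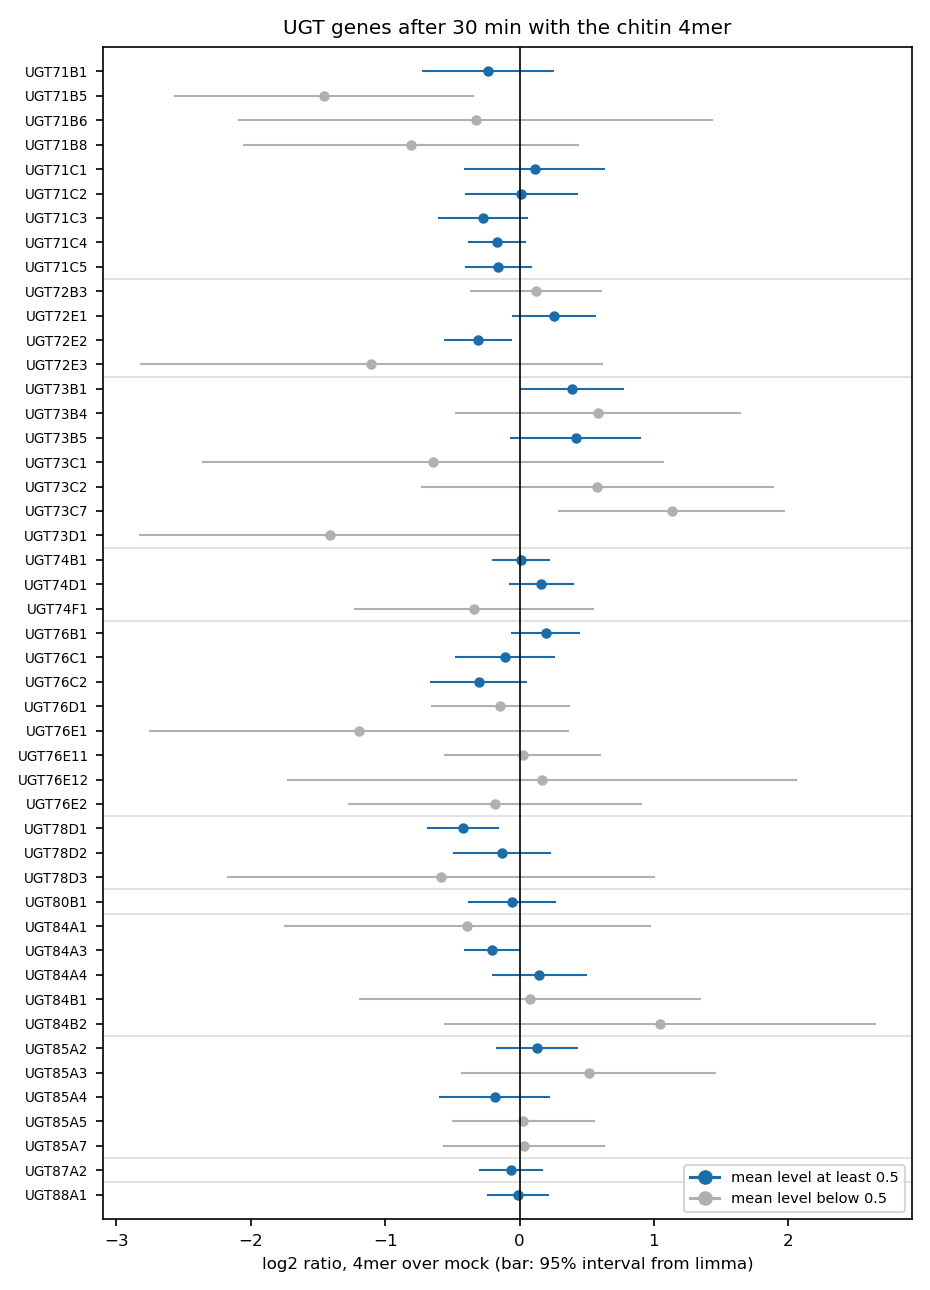
Log2 ratio (4mer over mock, 3 arrays per group) of each of the 47 UGT genes, ordered by family, with the 95% interval from limma as a bar. Genes with a mean level of at least 0.5 times the array median (blue) lie between -0.42 and 0.42, and those below it (grey) have wide intervals.

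The arrays carry one common scaling, with trimmed means between 496.8 and 497.4 in units of deposited signal. Mock replicate 1 stands apart, with a correlation of 0.952 to 0.960 with each other array over the 14505 probe sets with a mean level of at least 0.5, where all other pairs lie between 0.984 and 0.993. In 41 of the 47 UGT genes (87.2%) mock replicate 1 was the highest or the lowest of the mock arrays, and so it was in 84.7% of all probe sets. Of the listed marker genes for green leaf, 4 of 32 have a named probe set (*PRK*, *RCA*, *SBPASE* and *LHCB4.1*), all above the array median on every array, and their summed level ran from 151.7 to 207.7 in mock and from 156.8 to 177.3 in 4mer seedlings. Of the root markers, 3 of 31 are named (*PYK10*, *EXPA7* and *EXPA18*), with a summed level of 51.3 to 78.6 in mock and 52.2 to 61.5 in 4mer seedlings. The upper ends of both mock ranges are those of mock replicate 1, but the root sum is almost all *PYK10*, at 76.3 on that array against 47.8 and 52.4 on the other mock arrays. *EXPA7* was at 0.682 there against 1.48 and 1.47, and *EXPA18* at 1.71 against 1.99 and 1.82, so the root markers did not move together. *EXPA18* was also lower on every 4mer array (1.34, 1.24 and 1.51), with a log2 ratio of -0.44 that did not pass the test (adjusted p = 0.234). The part of these differences in the values of the UGT genes was not tested. None of the 19 flower and seed markers is named among the probe sets.

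The enzymes of the 72E group glucosylate the alcohols and aldehydes from which lignin is made, and their genes did not differ in the same direction. *UGT72E1*, whose enzyme acts mainly on coniferyl and sinapyl aldehyde, was at 6.92, 9.65 and 9.59 times the array median in mock replicates 1 to 3 and at 10.6, 10.1 and 10.2 in the 4mer replicates. The 4mer arrays all lay above the mock arrays, and mock replicate 1 was well below the other mock arrays. The log2 ratio was 0.26 (SE 0.13, adjusted p = 0.5004), and 0.10 without mock replicate 1 (adjusted p = 0.337). *UGT72E2*, which encodes the main glucosyltransferase of coniferyl and sinapyl alcohol, was at 2.03, 2.36 and 1.98 in mock and at 1.59, 1.73 and 1.81 in 4mer seedlings. Here every 4mer array was below every mock array, with a log2 ratio of -0.31 (SE 0.11, adjusted p = 0.350) and -0.34 without mock replicate 1 (adjusted p = 0.157). *UGT72E3*, which encodes a sinapyl alcohol glucosyltransferase, was dim, at 0.253, 0.330 and 0.305 in mock and at 0.0349, 0.299 and 0.247 in 4mer seedlings. Its log2 ratio of -1.102 (95% interval -2.82 to 0.61) rests on the low value of 4mer replicate 1.

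Within an array, the difference between 2 genes does not depend on the scaling of that array. The log2 level of *UGT72E1* over that of *UGT72E2* was 1.77, 2.03 and 2.28 on the mock arrays and 2.73, 2.55 and 2.49 on the 4mer arrays. The mean thus differed by 0.56 between the groups, which did not overlap (two-sided exact permutation test, p = 0.10, the smallest that 3 arrays against 3 can give, and 0.15 adjusted over 3 pairs). The pairs for this comparison were chosen after their values were seen. The remaining member of the family, *UGT72B3*, had a log2 ratio of 0.13 (95% interval -0.36 to 0.61).

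All 3 genes of the 78D group, whose enzymes attach sugars to flavonols, were lower on average with the 4mer, and none passed the test. *UGT78D1*, a flavonol rhamnosyltransferase gene, had levels of 1.495, 1.33 and 1.31 in mock seedlings and of 1.09, 0.981 and 1.02 in 4mer seedlings. This was the smallest p among the members, with no overlap of the groups, a mean of 1.38 ± 0.10 (SD, n = 3) in mock against 1.03 ± 0.05 (n = 3), and a log2 ratio of -0.42 (SE 0.11, 95% interval -0.68 to -0.16). Its unadjusted p of 0.00610 became 0.254 after adjustment in limma over all probe sets. *UGT78D2*, which encodes the glucosyltransferase of flavonols and anthocyanidins, was at 1.202, 1.73 and 1.70 in mock and at 1.32, 1.496 and 1.36 in 4mer seedlings. The groups overlapped through mock replicate 1, which was below all 4mer arrays. With all arrays the log2 ratio of *UGT78D2* was -0.13 (adjusted p = 0.787), and without mock replicate 1 it was -0.30 (adjusted p = 0.156). *UGT78D3*, a flavonol arabinosyltransferase gene, lay below 0.03 on every array, so that its log2 ratio of -0.58 (95% interval -2.17 to 1.003) is poorly determined. The log2 difference of *UGT78D1* and *UGT78D2* within an array was 0.31, -0.38 and -0.38 in mock and -0.28, -0.61 and -0.42 in 4mer seedlings, which overlapped (two-sided exact permutation test, p = 0.40).

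The 84A enzymes make glucose esters of hydroxycinnamic acids, and 3 of their genes were measured. *UGT84A3* was at 1.88, 1.90 and 1.90 in mock and at 1.61, 1.71 and 1.60 in 4mer seedlings. The mock arrays were nearly equal and all lay above the 4mer arrays, a log2 ratio of -0.21 (SE 0.09, adjusted p = 0.430). Its neighbour in the genome, *UGT84A4*, was at 0.781, 0.619 and 0.708 in mock and at 0.778, 0.808 and 0.738 in 4mer seedlings, a log2 ratio of 0.15 (95% interval -0.20 to 0.49). Within an array the log2 difference of *UGT84A4* and *UGT84A3* was 0.35 larger with the 4mer, without overlap of the groups (two-sided exact permutation test, p = 0.10, and 0.15 over the 3 pairs). This pair too was chosen after its values were seen, which the adjustment over 3 pairs does not take into account. *UGT84A1* was at most 0.0339 on any array.

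**Figure D2:**
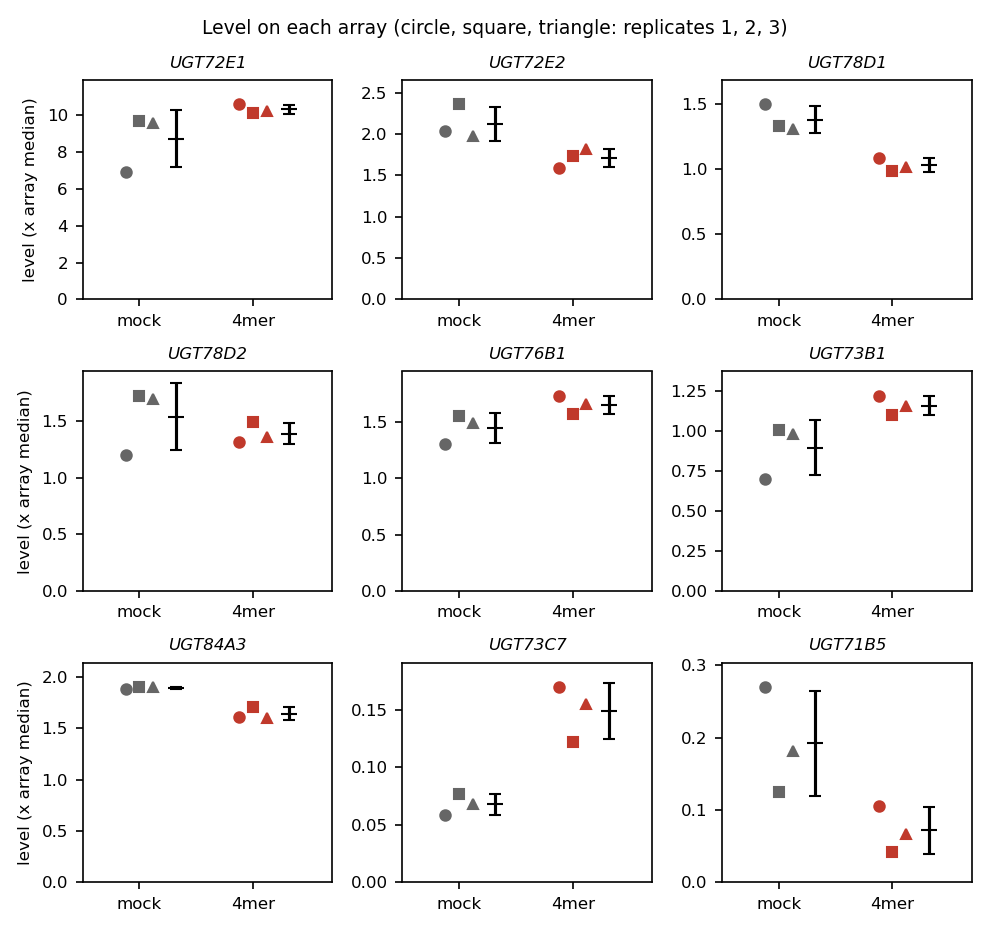
Level of 9 UGT genes as multiples of the array median (y axes start at 0), for the 3 mock and the 3 4mer arrays, with the mean and SD of each group as a black bar. *UGT72E2*, *UGT78D1*, *UGT84A3* and *UGT71B5* lie lower on all 4mer arrays, and *UGT72E1*, *UGT76B1*, *UGT73B1* and *UGT73C7* lie higher. Mock replicate 1 (grey circle) is the lowest mock array for *UGT72E1*, *UGT76B1*, *UGT73B1*, *UGT78D2*, *UGT73C7* and, by little, *UGT84A3*.

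Among the genes of salicylic acid and related compounds, *UGT76B1* was slightly higher with the 4mer and the others were lower, and none passed the test. *UGT76B1* encodes an enzyme that glucosylates isoleucic acid, salicylic acid and N-hydroxypipecolic acid and so dampens immunity. It was at 1.304, 1.56 and 1.49 in mock and at 1.73, 1.57 and 1.66 in 4mer seedlings. The groups did not overlap, but 4mer replicate 2 was only just above mock replicate 2, and the log2 ratio was 0.19 (SE 0.11, 95% interval -0.06 to 0.44, adjusted p = 0.535). *UGT71C3*, which encodes a methyl salicylate glucosyltransferase, was at 0.762, 0.930 and 0.853 in mock and at 0.715, 0.715 and 0.674 in 4mer seedlings. Its groups did not overlap, and the log2 ratio was -0.27 (adjusted p = 0.514). *UGT74F1*, a salicylic acid glucosyltransferase gene, and *UGT76D1*, whose enzyme acts on dihydroxybenzoic acids, stayed below 0.35 on every array, with log2 ratios of -0.34 and -0.14.

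Among the genes described here for the conjugation of cytokinins, abscisic acid, auxin and hydroxyjasmonic acid, the groups overlapped in every member except the dim *UGT76E1*. For the cytokinin N-glucosyltransferases, *UGT76C2* was at 1.46, 1.52 and 1.52 in mock and at 1.15, 1.02 and 1.53 in 4mer seedlings. The mock arrays were tightly grouped, 4mer replicates 1 and 2 were lower and 4mer replicate 3 was above all mock arrays, so the log2 ratio of -0.30 (SE 0.15, adjusted p = 0.496) depends on the array, and it was -0.47 without 4mer replicate 3. *UGT76C1*, its neighbour, had a log2 ratio of -0.11 (95% interval -0.47 to 0.25). Of the genes whose enzymes form the glucose ester of abscisic acid, *UGT71C5* was at 3.62, 3.25 and 2.94 in mock and at 3.19, 2.73 and 2.87 in 4mer seedlings (log2 ratio -0.16, adjusted p = 0.603), and *UGT71B6* lay below 0.07 on every array. *UGT74D1*, which encodes an auxin glucosyltransferase, was at 3.34, 3.99 and 4.27 in mock and at 4.21, 4.28 and 4.41 in 4mer seedlings. The groups overlapped and the log2 ratio of *UGT74D1* was 0.16 (SE 0.10, adjusted p = 0.582), and 0.06 without mock replicate 1. *UGT84B1*, another auxin glucosyltransferase gene, was at most 0.0262. *UGT76E1*, whose enzyme glucosylates hydroxyjasmonic acid, was at 0.0142, 0.0216 and 0.0519 in mock and at 0.00970, 0.0104 and 0.0131 in 4mer seedlings. These levels are among the dimmest of the members, and the log2 ratio of -1.196 had a 95% interval of -2.75 to 0.36.

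Several genes of family 73 are known to respond to pathogens, oxidative stress and foreign compounds. In this family 5 of 7 members were higher with the 4mer and 2 were lower, with a median log2 ratio of 0.42. The median was 0.18 with an offset of 0.25 and 0.32 without mock replicate 1. For the 2 members with a mean level of at least 0.5 it was 0.40, and both were higher. A floor of 0.25 gives a median of 0 by construction. This is because *UGT73B4*, *UGT73C1*, *UGT73C2* and *UGT73C7* lie below the floor on every array. *UGT73B1* was at 0.699, 1.01 and 0.978 in mock and at 1.22, 1.1 and 1.16 in 4mer seedlings. The groups did not overlap, with means of 0.895 ± 0.170 (SD, n = 3) and 1.16 ± 0.06 (n = 3), and mock replicate 1 was lowest. The log2 ratio of *UGT73B1* was 0.39 (SE 0.16, adjusted p = 0.427), and 0.22 without mock replicate 1 (adjusted p = 0.332). *UGT73B5*, a gene of the redox response to pathogens, was at 0.444, 0.555 and 0.534 in mock and at 0.841, 0.544 and 0.689 in 4mer seedlings. One 4mer array lay within the mock range, and the log2 ratio was 0.42 (SE 0.21, adjusted p = 0.487). *UGT73B4*, next to *UGT73B5* in the genome and dim on all arrays, had a log2 ratio of 0.58 (95% interval -0.47 to 1.64). The probe set shared by *UGT73B2* and *UGT73B3*, which was left out of the members because it cannot be assigned to either gene, was at 3.70, 3.35 and 3.37 in mock and at 4.68, 4.02 and 4.39 in 4mer seedlings. It is named here after its values were seen, the groups did not overlap, and the log2 ratio was 0.33 (SE 0.09, adjusted p = 0.249). The probe sets that *UGT89B1* and *UGT71D1* share with another gene were left out likewise. That of *UGT89B1* was at 2.51, 2.29 and 2.52 in mock and at 2.16, 2.101 and 2.24 in 4mer seedlings, lower on every 4mer array, with a log2 ratio of -0.17 (adjusted p = 0.492), and that of *UGT71D1* had -0.23 (adjusted p = 0.679) with overlapping groups.

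The remaining genes of family 73 were dim, and their values went both ways. *UGT73C7* was at 0.0581, 0.0770 and 0.0679 in mock and at 0.169, 0.122 and 0.155 in 4mer seedlings, a log2 ratio of 1.13 (SE 0.36, adjusted p = 0.321). This was the highest log2 ratio of the members, without overlap of the groups. All values of *UGT73C7* lie below 0.25, so a floor of 0.25 makes its arrays equal by construction and says nothing about the difference. With an offset of 0.25 the log2 ratio was 0.33 (SE 0.08, adjusted p = 0.231). *UGT73D1*, its neighbour, was at 0.307, 0.271 and 0.286 in mock and at 0.105, 0.0430 and 0.281 in 4mer seedlings. With 4mer replicate 3 inside the mock range, its log2 ratio was -1.41 (SE 0.61, adjusted p = 0.440), and it ran from -2.10 to -0.74 as each array was left out in turn. *UGT73C1* and *UGT73C2*, also neighbours, lay below 0.1 on every array and had log2 ratios of -0.64 and 0.58.

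In family 71, 7 of 9 members were lower with the 4mer and 2 were higher, with a median log2 ratio of -0.23. Without mock replicate 1 the median was -0.15, with 8 lower and 1 higher. For the 6 members with a mean level of at least 0.5 it was -0.16, with 4 lower and 2 higher. A floor of 0.25 gave -0.04, the value of *UGT71B5*, which lies above the floor on mock replicate 1 only. *UGT71B5* was at 0.269, 0.126 and 0.182 in mock and at 0.106, 0.0416 and 0.0673 in 4mer seedlings. This was the lowest log2 ratio of the members, -1.46 (SE 0.48, adjusted p = 0.331), without overlap of the groups but at a level where the spread within each group is large. Of the well-measured members of the family, *UGT71C4* was at 2.89, 2.47 and 2.63 in mock and at 2.35, 2.46 and 2.29 in 4mer seedlings, a log2 ratio of -0.17 (adjusted p = 0.525). Its 4mer replicate 2 was just below mock replicate 2, so the groups did not overlap. *UGT71C1* was at 0.672 on mock replicate 1 against 1.204 and 1.14 on the other mock arrays, and its log2 ratio turned from 0.11 to -0.15 without mock replicate 1. *UGT71C3*, *UGT71C4* and *UGT71C5*, which follow each other in the genome, had log2 ratios between -0.27 and -0.16.

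Several bright members had log2 ratios between -0.06 and 0.13, with intervals that include 0. *UGT88A1* was at 18.8, 15.9 and 15.9 in mock and at 17.4, 16.4 and 16.4 in 4mer seedlings, a log2 ratio of -0.01 with a 95% interval of -0.23 to 0.21. *UGT74B1*, which encodes the S-glucosyltransferase of glucosinolate synthesis, was at 4.86, 5.77 and 5.75 in mock and at 5.59, 5.30 and 5.56 in 4mer seedlings, a log2 ratio of 0.01 (95% interval -0.20 to 0.22). *UGT85A2* was at 4.34, 5.98 and 5.97 in mock and at 5.60, 6.09 and 5.92 in 4mer seedlings, a log2 ratio of 0.13 (95% interval -0.17 to 0.43). In *UGT74B1* and *UGT85A2*, mock replicate 1 was the lowest of the 6 arrays. *UGT87A2*, which is known to affect flowering time, and *UGT80B1*, a sterol glucosyltransferase gene, had log2 ratios of -0.06 each, with 95% intervals of -0.29 to 0.16 and -0.38 to 0.26. The other genes of family 85 lay between -0.19 and 0.51.

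Differences of 1.5-fold or more were found in dim members only. Of the 47 members, 24 had a mean level of at least 0.5 over the 6 arrays, and 14505 probe sets (63.8%) did. In these 24 members no difference reached 1.5-fold in either direction, where 1.72% of the probe sets at that level were at least 1.5-fold higher and 1.06% at least 1.5-fold lower. Of the 23 dimmer members, 2 were at least 1.5-fold higher (*UGT73C7* and *UGT84B2*), against 14.2% of the dimmer probe sets. A further 6 were at least 1.5-fold lower (*UGT71B5*, *UGT71B8*, *UGT72E3*, *UGT73C1*, *UGT73D1* and *UGT76E1*), against 13.8% of the dimmer probe sets. None of these 8 members passed the test. Without mock replicate 1, 5 members were at least 1.5-fold higher, with *UGT73B4*, *UGT73C2* and *UGT85A3* added, where 7.66% of all probe sets were, and 8 were at least 1.5-fold lower, with *UGT74F1* and *UGT78D3* added, where 4.77% were. In 20 members the signal stayed below 0.5 on every array, and in 14 it was above 1 on every array. The median SD of the log2 level was 0.24 in mock and 0.21 in 4mer seedlings over all members, and 0.15 and 0.08 over the 24 brighter ones.

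**Figure D3:**
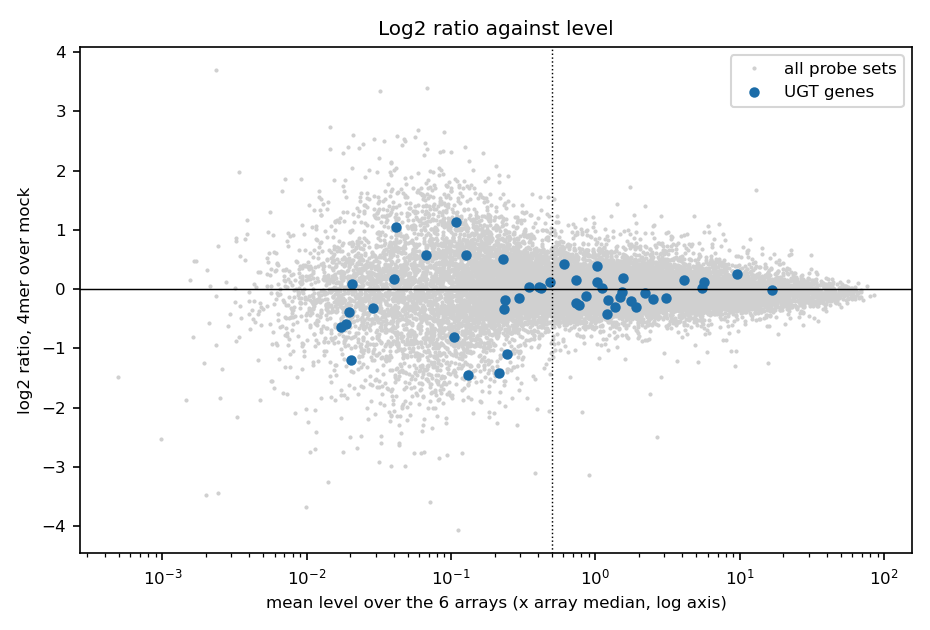
Log2 ratio (4mer over mock) against the mean level over the 6 arrays (multiples of the array median, log axis), for the 47 UGT genes (blue) on all 22746 probe sets (grey). To the right of the dotted line at 0.5 the 24 UGT genes lie between -0.42 and 0.42, and all members with a fold of 1.5 or more lie to its left.

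Many UGT genes stand in rows along the chromosomes, and 24 members form 10 rows in which no protein-coding gene of another kind lies between them. In 7 of these rows all members had log2 ratios of one sign, and in 3 they went both ways, while without mock replicate 1 the counts were 4 and 6. Most rows hold only 2 members, which often share a sign without any link between them, and a link was not tested. The row of *UGT85A7*, *UGT85A2*, *UGT85A5* and *UGT85A3*, with log2 ratios of 0.03, 0.13, 0.03 and 0.51, was the longest. Neighbours with unlike values were *UGT73D1* and *UGT73C7*, with -1.41 and 1.13, and *UGT73C1* and *UGT73C2*. None of the members is measured by a probe set whose name marks it as shared between transcripts.

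Genes that work beside the UGT enzymes were few among the named probe sets, and none passed the test in either direction. For glucosinolate synthesis 4 of 36 listed symbols were measured, 1 higher and 3 lower, with a median log2 ratio of -0.20. *BCAT4*, an aminotransferase of methionine chain elongation, was at 22.8, 20.0 and 19.8 in mock and at 18.6, 17.2 and 16.9 in 4mer seedlings, without overlap, a log2 ratio of -0.25 (adjusted p = 0.387). *GSTU20*, a glutathione transferase gene, had a log2 ratio of -0.15 (adjusted p = 0.678). The 3 flavonoid genes measured of 43 listed symbols had a median of 0.04, and both *CHIL*, a chalcone isomerase-like gene, with 0.04 (adjusted p = 0.926) and *DFR*, the dihydroflavonol reductase gene, with 0.06 (adjusted p = 0.947) lay near 0. Of 36 listed monolignol symbols 6 were measured, 4 higher and 2 lower, with a median of 0.02. Among them *ALDH2C4*, which encodes the dehydrogenase that forms ferulate and sinapate, had -0.14 (adjusted p = 0.656) and *CCR2*, a cinnamoyl-CoA reductase gene, -0.42 (adjusted p = 0.855). Of 94 listed genes for the synthesis, conjugation and breakdown of hormones, 10 were measured, 6 higher and 4 lower, with a median of 0.10. *GH3.1*, an auxin-conjugating enzyme gene, was below 0.13 on every array, with a log2 ratio of 1.63 (adjusted p = 0.386), and *YUC2*, a gene of auxin synthesis, was at 0.749, 0.788 and 0.746 in mock and at 0.860, 0.928 and 0.883 in 4mer seedlings (log2 ratio 0.23, adjusted p = 0.539). Of the genes that supply UDP-sugars only *USP*, the UDP-sugar pyrophosphorylase gene, was measured of 38 listed symbols, with a log2 ratio of -0.05 (adjusted p = 0.836).

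A further 4 genes carry a UGT number only as a synonym and are no members. They are *GT72B1* (UGT72B1), *SGT* (UGT80A2), *UF3GT* (UGT79B1) and AT5G54010 (UGT79B6), with log2 ratios of 0.05, 0.01, 0.13 and -0.48, and in each the groups overlapped. Further genes of such enzymes may be named otherwise, so the genes given here need not be the whole family. Of 58 genes with a UGT symbol in the gene table, 11 have no probe set of their own among the named ones, among them *UGT74F2*, *UGT75B1*, *UGT84A2* and *UGT73C6*, and were not analysed here.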

How the data were processed

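The deposited table gives, for each probe set and array, the linear signal intensity that the authors obtained from MicroArray Suite 5.0 after scanning the ATH1 arrays. The target of the scaling and detection calls are not given in the sources used here. Following the authors' procedure, a floor of 0.01 was applied and signals were expressed relative to the 50th percentile of their array. The log2 values of all 6 arrays were compared with limma 3.58.1 under R 4.3.3 (lmFit, eBayes with a variance trend, no covariate, Benjamini-Hochberg over all probe sets). The methods name SAM without a threshold. It was run as an alternative over all 20 permutations of the labels, with the false discovery rate held at 0.05.

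Gene names came from the annotation table of the platform, in which 13513 probe sets pair with 1 gene, 503 with several (not named, 3 of them with a UGT gene) and 8730 are not listed. All 47 members matched the TAIR 10.1 gene table by gene ID, and each has 1 probe set, so the choice of the brightest had no effect. Gene lists were matched by symbol or synonym, and a chitinase that shares the symbol CHI was left out. Members and lists were chosen with earlier results of these data known. Genes described in full are *UGT72E1*, *UGT72E2*, *UGT76B1*, *UGT78D1*, the 6 higher and the 6 lower members with the smallest p, and the brightest of each family with 3 or more members. Of each list the 2 genes with the smallest p are given. Others named are examples chosen after their values were seen.

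Alternatives were quantile normalization, no scaling, a floor or an offset of 0.25, only probe sets with a mean of at least 0.5, the replicate number as a block, no variance trend, SAM, the mean of a gene's probe sets and leaving out each array. The scripts were tested on simulated data. The number of arrays limits the precision. The counts of 1.5-fold differences and of genome rows without mock replicate 1 were added after the data had been seen. Figures were drawn with matplotlib 3.10.9.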

Additional observations from a re-analysis of the deposited data

How the results depend on the processing

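The number of members that passed the adjusted p was 0 under each alternative run, SAM and each left-out array included. Over all probe sets, 0 passed with the replicate number as a block and without mock replicate 2, 4mer replicate 1 or 4mer replicate 3. It was 1 probe set without mock replicate 3 or 4mer replicate 2, 4 by SAM and at most 338 (1.49%), without mock replicate 1. A count of 0 among 47 members thus says little by itself. The numbers at an unadjusted p under 0.05 are small and moved with the setting. The 2 higher members became 1 with quantile normalization, with an offset of 0.25, without a variance trend, among the brighter probe sets and with the replicate number as a block, and 0 with a floor of 0.25. Of all probe sets tested, 4.09% to 5.58% were higher under these settings. The 4 lower members became 2 among the brighter probe sets, where 24 members are tested and 8.87% of the probe sets were lower. Leaving out 1 array gave 0 to 3 higher and 2 to 6 lower members at an unadjusted p under 0.05. Of all probe sets, 2.92% to 7.73% were then higher and 4.16% to 9.67% lower. The groups did not overlap in 4 to 7 higher and 9 to 11 lower members. Of all probe sets, 11.3% to 16.5% and 16.3% to 19.1% were apart in these directions. The median log2 ratio of the members ran from -0.11 to -0.05. Fewer arrays make it easier for groups not to overlap. Without mock replicate 1, 7 members were higher and 11 lower without overlap, where 16.5% and 19.1% of all probe sets were. Among the members described in full, the direction turned for *UGT74B1* without mock replicate 1 or 4mer replicate 1 (-0.0036). It also turned for *UGT85A2* without mock replicate 1. Of the other members, *UGT71C1*, *UGT76E2*, *UGT76E11*, *UGT76E12*, *UGT80B1* (to 0.02) and *UGT88A1* (to 0.07) turned without mock replicate 1. The cause of these turns was not tested. Over all left-out arrays the log2 ratio ran from -0.071 to 0.053 for *UGT74B1* and from -0.026 to 0.21 for *UGT85A2*. Same-numbered mock and 4mer arrays did not deviate together (correlations of -0.043, -0.035 and -0.034 over 14505 probe sets), and the block called 0 probe sets. With 3 arrays per group and mock replicate 1 apart, neither can settle whether the numbers pair the samples. Below 0.25 times the array median, where no detection calls are at hand, a fold change says little.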
